A study of Mus musculus with 4 samples.

Results

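Vascular endothelial growth factor (VEGF) and angiopoietin genes were followed through the cell classes of the mouse thyroid. The 10 genes were chosen by symbol from the 32285 gene rows of the count matrices. Of these, 5 are ligands (Vegfa, Vegfb, Vegfc, Angpt1 and Angpt2) and 5 are receptors or co-receptors (Kdr, Flt1, Flt4, Nrp1 and Tek), and each symbol matched 1 row. The samples were thyroids of C57 mice (C57BL/6 in the study's methods) at postnatal day 5, 10, 20 and 30, with no treatment or genetic change named in the labels, and the cells of 10 mice were pooled into 1 droplet single-cell library per age. An age therefore had no replicate, no test across ages was made, and a difference between libraries is a value with counting error only. Levels are given as CPM, the UMIs (unique molecular identifiers, 1 per captured transcript) of a gene per 1000000 UMIs of a cell class in a library.

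VEGF-A is a secreted factor that drives growth, survival and permeability of blood vessels through the tyrosine kinase receptor KDR (VEGFR2), while FLT1 (VEGFR1) binds it tightly and acts largely as a decoy, also for VEGF-B. VEGF-C acts mainly through FLT4 (VEGFR3) on lymphatic endothelium, and neuropilin 1 (Nrp1) is a co-receptor. Angiopoietin 1 from cells around the vessel activates the endothelial receptor TEK (TIE2) and stabilises vessels, and angiopoietin 2 modulates the same receptor. In the thyroid each follicle, the hormone-making unit, is wrapped by fenestrated capillaries, an endothelium known to depend on VEGF-A from its epithelium.

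The 4 libraries held 54921806 to 89039113 UMIs, and 4820 to 12956 cells per library were kept, 29578 in all. Of these, 16969 fell into the 7 classes compared, which are 3638 follicular, 5542 capillary, 722 larger vessel, 77 lymphatic, 622 mural (pericyte and smooth muscle), 2609 macrophage and 3759 fibroblast cells. None of the 10 genes served to draw or name a class. The summed level of a class's own markers lay above that in every other of the 7 classes in each library, for example 20573 to 25972 CPM of 7 lymphatic markers in lymphatic cells against at most 641 CPM elsewhere. The lymphatic class had 48, 15 and 13 cells in the libraries labelled day 5, 10 and 20 and 1 cell in that labelled day 30, which was left out. H19, an imprinted RNA known to decline after birth, was at 60.6, 815, 124 and 2884 CPM in fibroblasts of the libraries labelled day 5, 10, 20 and 30. H19 was thus lowest in the library labelled day 5 and highest in that labelled day 30, against the ages, and fell only from that labelled day 10 to that labelled day 20. By label from day 5 to day 30 the libraries kept 12956, 5652, 6150 and 4820 cells. The library with the most cells is thus the one labelled with the youngest age, where the study's methods give the most cells for the oldest. Libraries are therefore named here by their labels, and no direction with age is drawn. Barcodes recurred between libraries: among those labelled day 10, 20 and 30, a library's cells were found again in another's matrix at a rate of 98.99% to 99.73% and a median depth of 8 to 11 UMIs. Against the library labelled day 5 the rate was 45.65% to 59.57% at a median of 1 UMI. Intervals given with levels and shares cover counting error only.

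All 10 are protein-coding genes, and their positions are given on GRCm38 (mm10) from the GENCODE vM21 annotation. The ligand genes are Vegfa at chr17:46016993-46032369, Vegfb at chr19:6982473-6987651, Vegfc at chr8:54077606-54187096, Angpt1 at chr15:42424723-42676977 and Angpt2 at chr8:18690263-18741562. The receptor genes are Kdr at chr5:75932827-75978458, Flt1 at chr5:147561604-147726011, Flt4 at chr11:49609263-49652739, Nrp1 at chr8:128358604-128503363 and Tek at chr4:94739289-94874976. Reads were tags from the 3′ end of transcripts, so splice forms such as those of Vegfa or the soluble form of Flt1 were not resolved, and UMIs are summed over each gene.

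Among the 7 classes, Vegfa was highest in follicular cells. Its level there was 573 CPM in the library labelled day 5, 781 in that labelled day 10, 484.5 in that labelled day 20 and 870 in that labelled day 30 (mean 677 ± 179, SD, n = 4 libraries). Every follicular value lay above every value of the other 6 classes. Fibroblasts followed at 102 to 142 CPM, then mural cells at 25.0 to 140 CPM and larger vessel endothelium at 54.2 to 76.8 CPM, whose ranges overlapped. Outside the 7 classes, C cell-like cells held 257 to 301 CPM, parathyroid-like cells 143 to 319 CPM and unnamed clusters 258 to 545 CPM. A cluster of 1066 cells at a median of 977 UMIs held 158 to 464 CPM. It is called here by its leading genes Bpifa1, Car3 and Wfdc2, since its muscle and follicular markers were raised alike (mean log2 fold 4.54 and 4.50). Fibroblasts thus came second among the 7 only. Capillary cells, which carry the receptors, held 28.0, 20.6, 24.4 and 17.2 CPM in the same order of libraries. Against capillary cells the follicular level was higher by 4.99 ± 0.39 (SE) on the log2 scale, in 4 of 4 libraries (edgeR quasi-likelihood test, adjusted p = 6.9e-11). Against macrophages it was higher by 4.66 ± 0.40 (edgeR adjusted p = 3.6e-10). Follicular cells made up 4.76% to 18.1% of kept cells. Their median depth was 8362, 12518, 15329 and 17891 UMIs, against 3436, 6052, 3035 and 7060 UMIs over all kept cells of the same libraries. Their share of all UMIs was therefore larger than their share of cells. They held 55.3% to 79.6% of all Vegfa UMIs in kept cells. In the library labelled day 20 a further 20.4% lay in T-like cells, which were 64.5% of its kept cells. In the 4 libraries 5.43% to 12.6% lay in unnamed clusters, among them 1 of 431 cells with follicular and endothelial genes together.

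UMIs of follicular markers were also found in the other classes, and Vegfa was set against them. Droplets of 10 to 100 UMIs, which hold free RNA, had 121 to 209 CPM of Vegfa. If the Vegfa of a class had come along with its follicular marker UMIs at the follicular ratio, fibroblasts would have had 2.87 to 18.8 CPM, and 102 to 142 CPM were measured. Larger vessel cells would have had 3.83 to 13.4 CPM, with 54.2 to 76.8 CPM measured. In macrophages the values at that ratio were 46.1, 9.49, 22.4 and 6.62 CPM, and 55.8, 7.99, 30.1 and 12.3 CPM were measured, above the ratio in 3 libraries and below it in that labelled day 10. In mural cells of the library labelled day 5 the ratio gave 91.5 of the 140 CPM measured, and 9 follicular markers there summed to 8766 CPM, against 262 to 825 CPM in mural cells of the other libraries. The measured Vegfa of mural cells in those libraries was 25.0 to 76.6 CPM, and without the library labelled day 5 the call of Vegfa as higher in mural than in capillary cells was lost (log2 fold 0.91, edgeR adjusted p = 0.1), as it was at least 1000 UMIs per cell (adjusted p = 0.067) or with coarser clusters (adjusted p = 0.15).

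**Figure D1:**
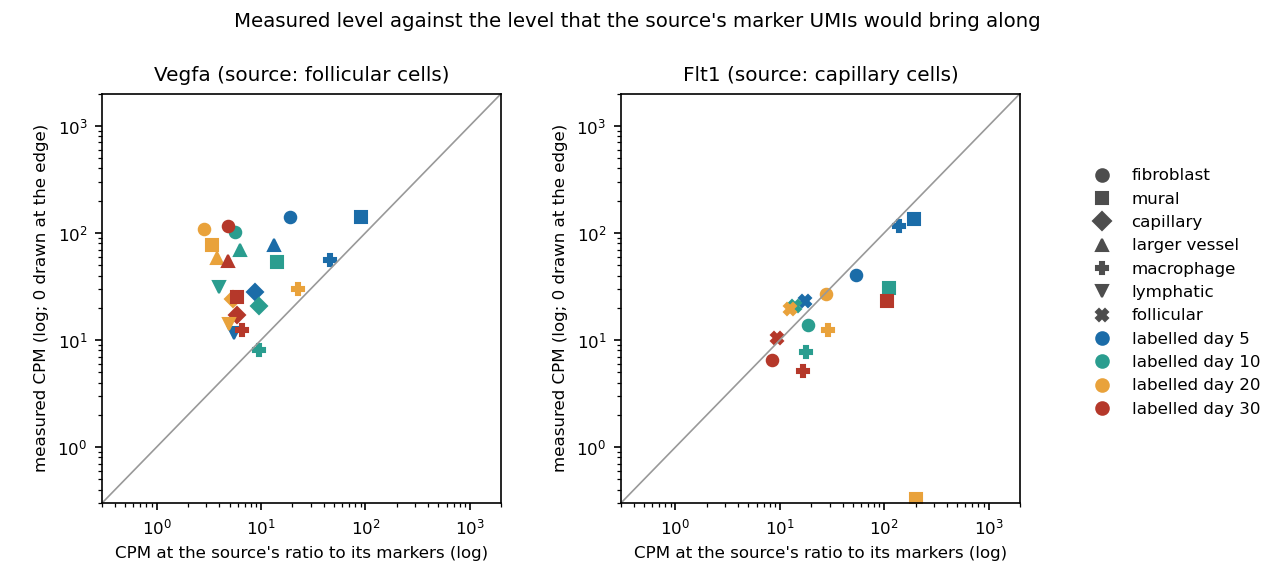
Measured CPM against the CPM that a class would show if the gene came along with the source's marker UMIs at the source's ratio, both axes log, 1 point per class (shape) and library (colour), with the line of equal values. For Vegfa the fibroblast and larger vessel points lie well above the line, while the Flt1 points of macrophages, fibroblasts and mural cells lie near or below it.

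Among the 7 classes, Vegfb was also highest in follicular cells by its mean, with 85, 66.2, 73.0 and 63.3 CPM (mean 71.9 ± 9.66, SD, n = 4). The range in lymphatic cells, 54.2 to 69.6 CPM, overlapped it, although it rests on 4 to 18 UMIs per library. Outside the 7 classes, the cluster led by Bpifa1, Car3 and Wfdc2 held 96.1, 59.0, 158 and 103 CPM, from 19 to 66 UMIs. Parathyroid-like cells held 43.8, 107, 56.5 and 67.2 CPM and C cell-like cells 32.9 to 70.4 CPM, which overlap the follicular values. Mural cells (19.1 to 55.5 CPM), macrophages (27.2 to 42.8 CPM) and fibroblasts (19.2 to 31.8 CPM) came next and overlapped. Both blood vessel classes were lowest, capillary cells at 7.58 to 14.04 CPM and larger vessels at 2.89 to 13.8 CPM. Vegfb was higher in follicular than in capillary cells by 2.84 ± 0.19 on the log2 scale (edgeR adjusted p = 4.9e-12) and lower in capillary than in lymphatic cells by 2.47 ± 0.37 (log2 fold -2.47, edgeR adjusted p = 2.9e-05). Free RNA held 20.6 to 55.1 CPM of Vegfb. At the follicular ratio to follicular markers the other 6 classes would have had 0.338 to 13.6 CPM, and each measured value lay above the one at that ratio.

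Per UMI of the class, Vegfc was highest in larger vessel cells. It stood at 221.5, 313, 263 and 371 CPM in larger vessel cells of the libraries labelled day 5, 10, 20 and 30 (mean 292 ± 64.5, SD, n = 4). Fibroblasts had 27.9 to 48.5 CPM and capillary cells 21.3 to 35.6 CPM, overlapping each other and lying below all larger vessel values. Follicular cells had 18 Vegfc UMIs in all, 4 to 6 per library, which is 0.230 to 0.636 CPM. Capillary cells were lower than larger vessels by 3.33 ± 0.19 on the log2 scale (log2 fold -3.33) in 4 of 4 libraries (edgeR adjusted p = 5.2e-11). Lymphatic cells, which carry the VEGF-C receptor, held no Vegfc UMI among 458640 UMIs of 3 libraries, where 3 UMIs would be 6.54 CPM. In the same libraries larger vessels were at least 39.9-fold higher and capillary cells at least 4.24-fold higher, with the floor of 3 counts taken over the group. Larger vessel cells held 23.4% to 32.8% of the Vegfc UMIs of kept cells at 1.04% to 3.67% of cells. Fibroblasts, at 6.36% to 18.6% of cells, held 19.9%, 37.3%, 30.6% and 38.2% of them, more than larger vessels in the libraries labelled day 10, 20 and 30.

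**Figure D2:**
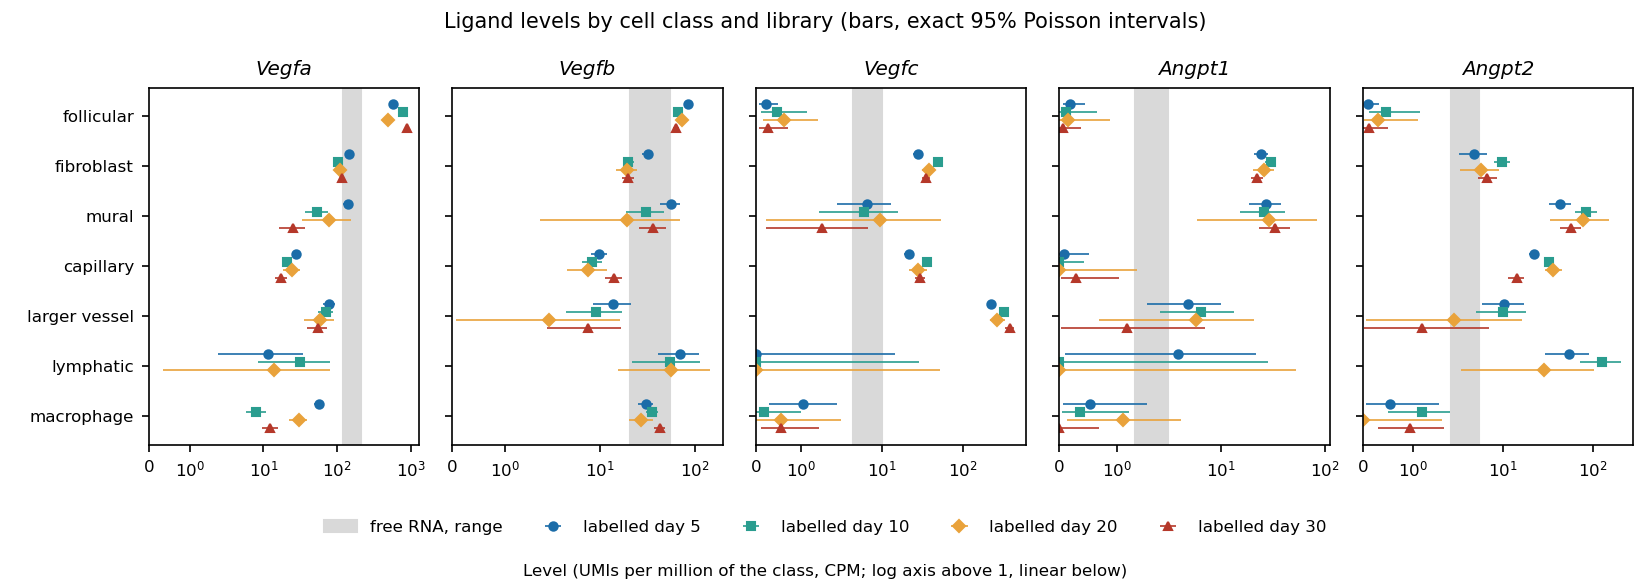
Level of the 5 ligands in CPM (symmetric log axis) in the 7 classes, 1 point per library with its exact 95% Poisson interval, and the range of free RNA in grey. Vegfa is highest in follicular cells (484.5 to 870 CPM), Vegfc in larger vessels (221.5 to 371 CPM), and Angpt1 in mural cells and fibroblasts (22.2 to 33.3 CPM).

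Angpt1 was found in the cells around vessels. Mural cells held 26.9, 25.9, 28.7 and 33.3 CPM, from 33, 17, 3 and 36 UMIs, and fibroblasts held 24.2, 30.0, 25.8 and 22.2 CPM. The ranges overlapped, and the log2 fold between the classes was -0.03 ± 0.29 (edgeR adjusted p = 1). Capillary cells held 3 Angpt1 UMIs in all 4 libraries together and larger vessels 17. Mural cells were above capillary cells in 4 of 4 libraries (log2 fold 7.70 ± 0.49, edgeR adjusted p = 4.9e-12). Fibroblasts held 67.2%, 79.8% and 74.5% of the Angpt1 UMIs of kept cells in the libraries labelled day 5, 10 and 30, and 22.7% in that labelled day 20. In that last library 72.9% of them lay in T-like cells.

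Angpt2 was highest in lymphatic and mural cells. Lymphatic cells held 54.1, 124 and 28.2 CPM, from 14, 16 and 2 UMIs, and mural cells held 43.2, 83.7, 76.6 and 56.5 CPM. Capillary cells stood at 22.1, 32.2, 36.2 and 14.2 CPM, all below the mural values, and larger vessels at 1.26 to 10.4 CPM. Angpt2 was higher in mural cells than in fibroblasts by 2.94 ± 0.29 on the log2 scale (edgeR adjusted p = 2.2e-08) and higher in mural than in capillary cells by 1.19 ± 0.28 (edgeR adjusted p = 0.0011). Among blood vessels it was higher in capillary cells than in larger vessels by 1.81 ± 0.36, in 4 of 4 libraries (edgeR adjusted p = 0.0013). The lymphatic level was above the capillary level in 2 of 3 libraries only, and that call (log2 fold -1.28 for capillary against lymphatic, edgeR adjusted p = 0.032) was lost without the library labelled day 10 (log2 fold -0.90, adjusted p = 0.47) or that labelled day 5 (log2 fold -1.16, adjusted p = 0.2), and at most 10000 UMIs per cell (log2 fold -0.73, adjusted p = 0.67). The same call was lost at most 5% mitochondrial UMIs (edgeR adjusted p = 0.51), with coarser clusters (0.075) or with no filter on low counts (0.069). It was lost as well without the library as block (edgeR adjusted p = 0.063), with list genes kept among the features (0.063) or with doublets kept (0.051). By number of cells, capillary endothelium held the largest share of Angpt2 UMIs, 35.8% to 47.8%.

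Kdr, Flt1 and Nrp1 were highest in capillary cells in every library. Kdr stood at 2356, 1912, 1634 and 1920 CPM there, against 557 to 1017 CPM in larger vessels and 271 to 677.5 CPM in lymphatic cells. Flt1 stood at 3472, 2338, 3802 and 2026 CPM in capillary cells and 1368 to 1830 CPM in larger vessels. In lymphatic cells Flt1 was at 178 CPM in the library labelled day 5 and had no UMI in those labelled day 10 and 20, which allows up to 23.22 and 42.35 CPM. Nrp1 stood at 1448, 1158, 1942 and 916 CPM in capillary cells and at 545 to 698 CPM in larger vessels. The capillary values of all 3 genes lay above all values of the larger vessels.

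**Figure D3:**
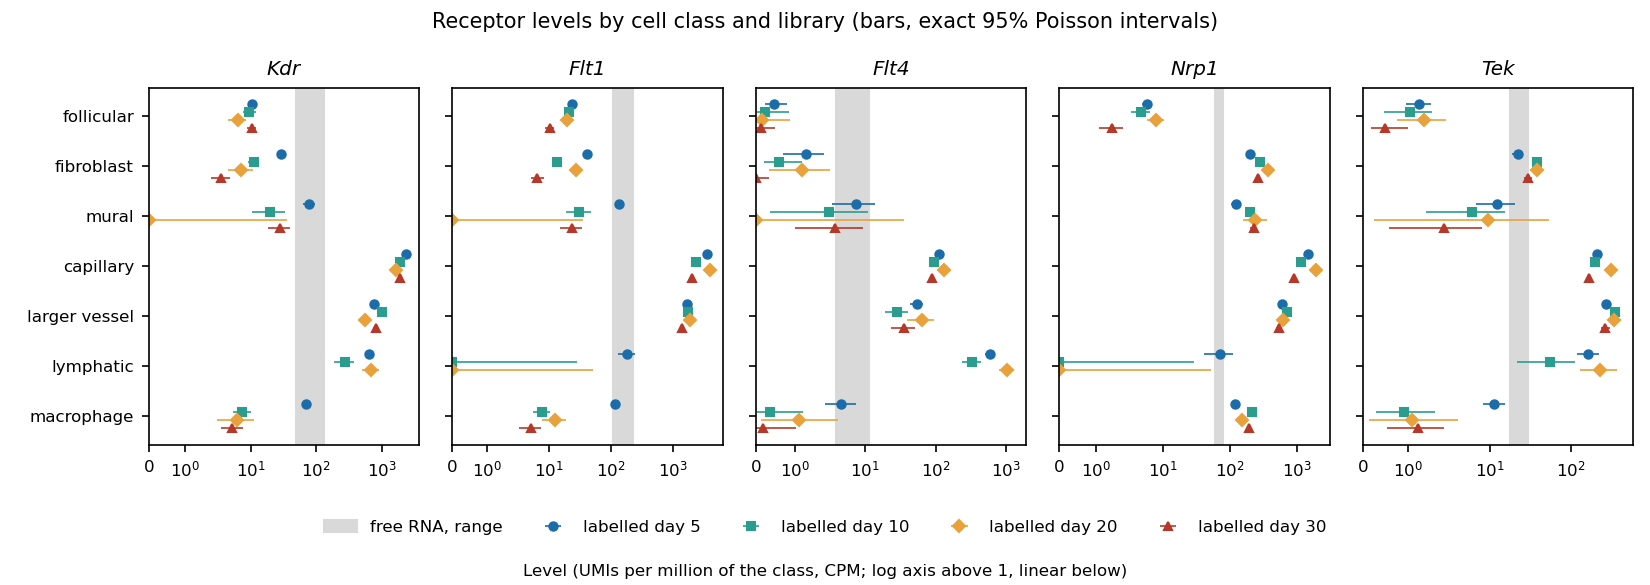
Level of the 5 receptors in CPM (symmetric log axis) in the 7 classes, 1 point per library with its exact 95% Poisson interval, and the range of free RNA in grey. Kdr and Flt1 outside endothelium lie below or within the grey band, and Flt4 is highest in lymphatic cells (325 to 1016 CPM).

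Nrp1 was also present outside endothelium. Fibroblasts held 196 to 373 CPM, mural cells 122 to 239 CPM and macrophages 119 to 211.5 CPM of Nrp1, all above the free RNA (59.6 to 77.7 CPM). In the library labelled day 5 Flt1 was as high there, at 134 CPM against 122 CPM of Nrp1 in mural cells and at 116 against 119 CPM in macrophages. Follicular cells held 1.73 to 7.79 CPM, and Nrp1 was lower there than in macrophages by 5.41 ± 0.40 on the log2 scale (log2 fold -5.41, edgeR adjusted p = 3.5e-11). In lymphatic cells Nrp1 was at 69.6 CPM in the library labelled day 5 and had no UMI in those labelled day 10 and 20. Nrp2, the neuropilin known as a VEGF-C co-receptor, was at 217 to 313 CPM in lymphatic cells and at 160 to 250 CPM in capillary cells.

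Flt4 was highest in lymphatic cells, at 588, 325 and 1016 CPM from 152, 42 and 72 UMIs. Capillary cells held 113, 93.9, 132 and 87.7 CPM, and larger vessels 28.5 to 63.5 CPM, and none of these ranges overlapped. Flt4 was lower in capillary than in lymphatic cells by 2.14 ± 0.31 on the log2 scale (log2 fold -2.14, edgeR adjusted p = 1.7e-05) and higher in capillary cells than in larger vessels by 1.36 ± 0.29 (edgeR adjusted p = 0.0025). The second call was lost with DESeq2 (adjusted p = 0.054), without the library as block (edgeR adjusted p = 0.11) or without the library labelled day 10 (adjusted p = 0.086). Tek was spread more evenly over endothelium, with 262 to 340 CPM in larger vessels, 165 to 307 CPM in capillary cells and 54.2 to 226 CPM in lymphatic cells, ranges that overlap from each class to the next. It was higher in larger vessels than in capillary cells in 4 of 4 libraries but was not called (log2 fold -0.47 ± 0.33, edgeR adjusted p = 0.5). Fibroblasts held 22.0 to 38.1 CPM of Tek, where free RNA held 17.6 to 29.3 CPM and the capillary ratio to endothelial markers gives 0.688 to 3.21 CPM.

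The receptors were low in follicular cells. Kdr was at 6.36 to 10.5 CPM and Flt1 at 10.4 to 23.4 CPM in follicular cells, below the 49.9 to 132 and 107 to 228 CPM of free RNA droplets. At the capillary ratio to endothelial markers, follicular cells would have had 5.34 to 11.8 CPM of Kdr and 9.41 to 17.5 CPM of Flt1. The measured Flt1 was above that ratio in 4 of 4 libraries, and Kdr in 2 of 4. When each cell was thinned to 1000 UMIs, 72.5% to 85.1% of capillary cells and 31.1% to 41.8% of larger vessel cells had a Kdr UMI. The share was 0.683% to 1.02% in follicular cells and 0.177% to 1.18% in T-like cells, which should lack the gene. Vegfa was seen in 37.9% to 51.4% of thinned follicular cells and 1.61% to 2.98% of capillary cells, with 1.18% to 6.74% in T-like cells. Cells under 1000 UMIs were left out of the thinned shares, which covered 2349 of 2350 follicular and 2989 of 3429 capillary cells of the library labelled day 5 at median depths of 8362 and 2054 UMIs before thinning.

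The start regions of 1 follicular ligand (Vegfa) and 3 endothelial receptors (Kdr, Flt1 and Tek) are shown so that the letters upstream of each can be compared, and these 4 were chosen after their values were seen. They are the 250 bases before the RefSeq start on GRCm38.p6 (mm10), each 5′ to 3′ on the gene's own strand, in lower case with GGAAG on either strand in capitals. GGAAG is a longer form of GGAA, a core of the binding motif of ETS factors. ETS factors are known regulators of endothelial genes. The regions are chr17:46032378-46032627 (minus strand) for Vegfa, chr5:75978456-75978705 (minus strand) for Kdr, chr5:147726012-147726261 (minus strand) for Flt1 and chr4:94739039-94739288 (plus strand) for Tek. The table held promoters for 8 of the 10 genes, and Angpt1 and Angpt2 were not among them.
Vegfa: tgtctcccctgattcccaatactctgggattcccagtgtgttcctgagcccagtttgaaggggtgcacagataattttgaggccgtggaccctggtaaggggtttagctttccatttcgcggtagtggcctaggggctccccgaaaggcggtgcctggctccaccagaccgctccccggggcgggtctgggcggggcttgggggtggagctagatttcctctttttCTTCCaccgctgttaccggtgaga
Kdr: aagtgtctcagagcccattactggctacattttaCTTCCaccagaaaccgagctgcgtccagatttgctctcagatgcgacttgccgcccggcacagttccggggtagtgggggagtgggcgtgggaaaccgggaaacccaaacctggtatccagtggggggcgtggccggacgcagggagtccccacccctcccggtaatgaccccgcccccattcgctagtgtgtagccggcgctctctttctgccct
Flt1: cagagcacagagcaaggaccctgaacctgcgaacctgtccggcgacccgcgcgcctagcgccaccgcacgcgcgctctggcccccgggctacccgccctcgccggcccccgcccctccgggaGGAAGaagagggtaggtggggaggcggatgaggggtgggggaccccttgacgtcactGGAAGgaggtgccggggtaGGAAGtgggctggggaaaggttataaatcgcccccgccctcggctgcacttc
Tek: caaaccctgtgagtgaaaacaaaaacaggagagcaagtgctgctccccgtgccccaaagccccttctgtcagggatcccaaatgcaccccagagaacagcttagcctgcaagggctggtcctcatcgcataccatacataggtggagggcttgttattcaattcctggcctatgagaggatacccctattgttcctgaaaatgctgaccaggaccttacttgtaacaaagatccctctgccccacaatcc
GGAAG matched 3 times before Flt1, 1 time each before Kdr and Vegfa and not at all before Tek. The shorter GGAA was not marked or counted, and the Tek window holds it on the other strand (ttcc). Of the 4 promoters not shown, GGAAG matched 1 time before Flt4, 3 times before Nrp1 and not at all before Vegfb and Vegfc. Of 32851 promoters of this length, 64.1% hold GGAAG. The HIF core ACGTG, known from hypoxia-responsive genes, matched none of these 4 windows and is held by 16.6% of promoters, and the GC box GGGCGG matched 2, 3 and 2 times before Kdr, Flt1 and Vegfa and is held by 32.7%. These matches are letters in a window of sequence and no measurement of binding.

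The 3 endothelial classes were compared on UMI sums per class and library. Between capillary and larger vessel cells, 3 of the 10 genes were higher in capillary cells (Flt4, Nrp1 and Angpt2) and 3 lower (Vegfa, Vegfc and Angpt1) at an adjusted p below 0.05, against 3.22% and 5.84% of all 14020 genes tested. Kdr (log2 fold 1.31 ± 0.44, edgeR adjusted p = 0.068) and Flt1 (0.76 ± 0.48, adjusted p = 0.45) were higher in capillary cells in 4 of 4 libraries but were not called. The Nrp1 call (log2 fold 1.14 ± 0.33, adjusted p = 0.028) was lost without the library labelled day 10 (adjusted p = 0.087) or day 20 (adjusted p = 0.19), and the Vegfa call (log2 fold -1.51 ± 0.39, adjusted p = 0.013) likewise (adjusted p = 0.081 and 0.077). Without the library as block, the calls of Nrp1 and Vegfa were lost too (adjusted p = 0.092 and 0.06), and that of Nrp1 with DESeq2 in place of edgeR (adjusted p = 0.059) or at most 5% mitochondrial UMIs (adjusted p = 0.12). Angpt1 was lower in capillary cells by a fold of -5.10 ± 0.69 on the log2 scale (edgeR adjusted p = 1.1e-05), a value that rests on 3 against 17 UMIs.

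Between capillary and lymphatic cells, 4 genes were higher in capillary cells (Flt1, Nrp1, Kdr and Vegfc) and 3 lower (Flt4, Vegfb and Angpt2), against 7.49% and 6.28% of genes tested. The log2 fold was 6.03 ± 0.79 for Flt1 (edgeR adjusted p = 4.8e-06), 5.29 ± 0.55 for Nrp1 (adjusted p = 1.5e-07) and 2.26 ± 0.56 for Kdr (adjusted p = 0.0064), and the Kdr call was lost without the library labelled day 10 (adjusted p = 0.11), without the library as block (adjusted p = 0.1) or at most 5% mitochondrial UMIs (adjusted p = 0.13). The Vegfc call was lost at most 10000 UMIs per cell (edgeR adjusted p = 0.23) or at least 1000 UMIs (adjusted p = 0.054). Between larger vessel and lymphatic cells, 3 were higher (Vegfc, Flt1 and Nrp1) and 3 lower (Flt4, Angpt2 and Vegfb), against 5.81% and 4.50% of genes. The Angpt2 call of larger vessels was lost at most 10000 UMIs per cell (log2 fold -2.41, edgeR adjusted p = 0.12). Vegfc, at 0 in lymphatic cells, has the bounds given above in place of a fitted fold. The libraries that serve as replicates differ in age. The library block takes out what the classes of a library share, so the spread behind these p-values still holds age differences particular to a class. The classes were drawn from the same cells, so these p-values are not independent of how the classes were made.

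**Figure D4:**
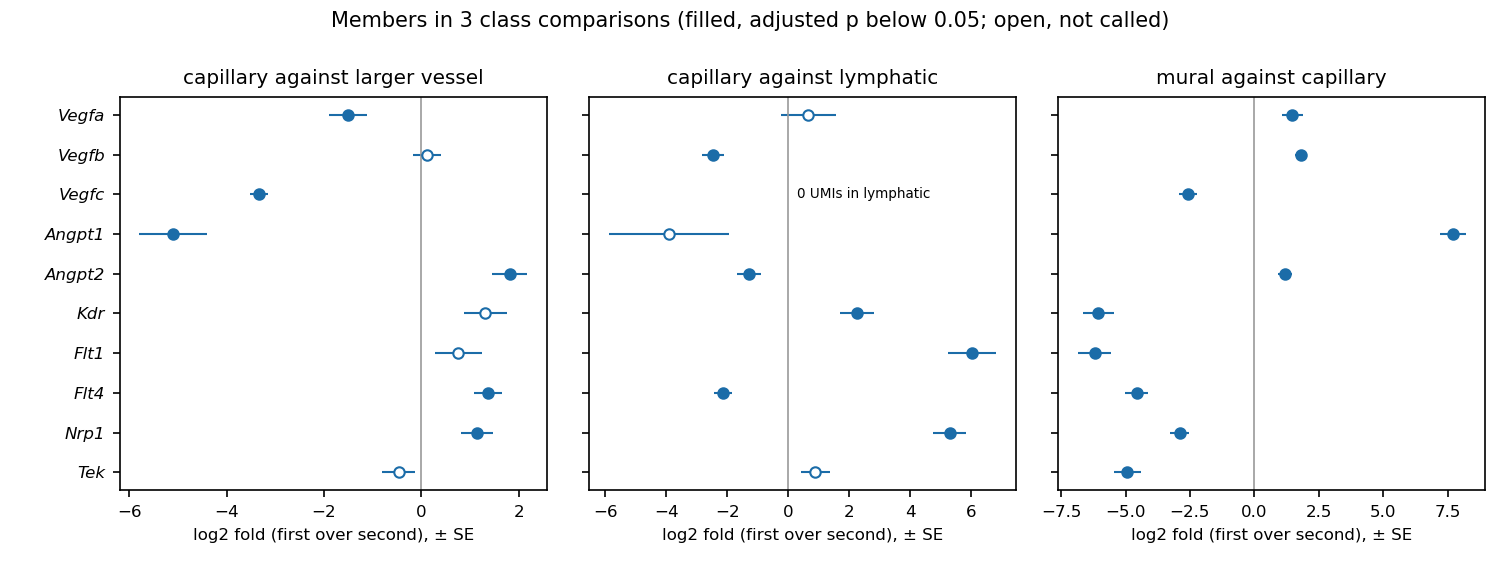
Fitted log2 fold (x axis) of the 10 genes, with ± SE derived from the edgeR F statistic, for capillary against larger vessel, capillary against lymphatic and mural against capillary cells, filled where the adjusted p is below 0.05. Vegfc is lower in capillary than in larger vessel cells (log2 fold -3.33), and Flt1 and Nrp1 are far higher in capillary than in lymphatic cells (6.03 and 5.29).

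The larger vessel class joined 2 sub-clusters, 1 high in Vwf (26 to 221 cells per library) and 1 high in Gja4 (38 to 254 cells), a connexin known from arteries. Vwf was at 629 to 1489 CPM in the first and 73.8 to 95 CPM in the second, and Gja4 at 0 to 27.8 and 666 to 1513 CPM. Vegfc stood at 121, 207, 216 and 199 CPM in the Vwf-high cells and at 321, 426, 311 and 516 CPM in the Gja4-high cells of the same libraries. Vegfa stood at 43.1, 33.9, 22.7 and 19.3 CPM in the first and 110, 108, 93.9 and 83.7 CPM in the second. Both ligands were thus higher in the Gja4-high cells in each of the 4 libraries, and for neither gene did the ranges of the sub-clusters overlap. Angpt2 was at 15.3, 17.8, 5.68 and 2.76 CPM in Vwf-high cells, from 11, 10, 1 and 1 UMIs, and at 5.51, 1.89, 0 and 0 CPM in Gja4-high cells, from 4, 1, 0 and 0 UMIs. A count of 0 allows up to 17.6 and 6.97 CPM there, above the Vwf-high values, so no direction can be read in the libraries labelled day 20 and 30. Tek differed little, at 252 to 352 and 260 to 352 CPM. Sub-clusters were drawn from these cells, so their values are a description with no test.

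**Figure D5:**
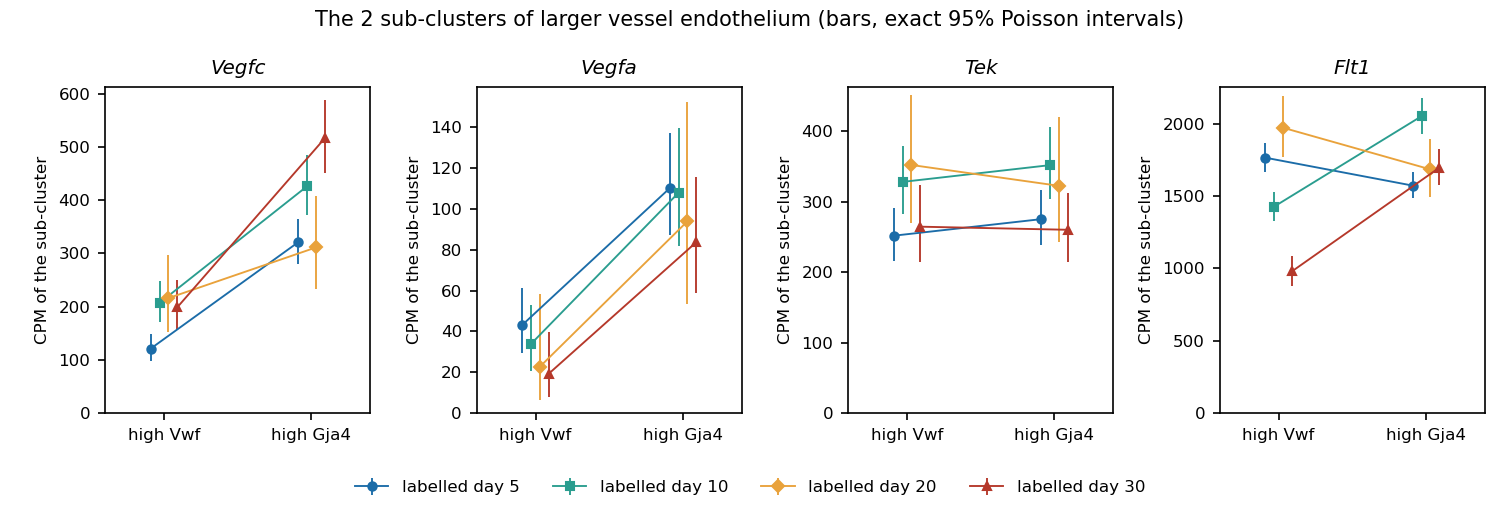
CPM of Vegfc, Vegfa, Tek and Flt1 in the Vwf-high and Gja4-high sub-clusters of larger vessel endothelium, 1 line per library with exact 95% Poisson intervals, axes from 0. Vegfc and Vegfa are higher in the Gja4-high cells in all 4 libraries, Tek stays between 252 and 352 CPM, and Flt1 has no common direction.

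Among capillary cells a dividing sub-cluster (Mki67 at 315 to 424 CPM) of 98 and 89 cells was present in the libraries labelled day 10 and 30, with 3 and 0 cells in those labelled day 5 and 20. Its Kdr was at 995 and 1369 CPM and its Flt1 at 1210 and 1524 CPM, against 2085 and 2119 CPM of Kdr and 2546 and 2213 CPM of Flt1 in the main non-dividing sub-cluster of the same libraries. Nrp1 was at 656 and 701 CPM against 1221 and 984 CPM. Vegfc lay the other way, at 68.1 and 47.7 CPM in dividing against 30.4 and 23.5 CPM in non-dividing cells. Markers of vessel type differed between these cells too. Vwf was at 29.7 and 27.3 CPM in dividing against 2.60 and 4.77 CPM in non-dividing cells, and Selp at 10.5 and 5.11 against 0.577 and 0.597 CPM. Esm1 was at 258 and 393 CPM in dividing and 1770 and 1037 CPM in non-dividing cells, and the part of these differences in the receptor and Vegfc values was not tested. Most capillary cells of the library labelled day 5 lay in 2 other sub-clusters, and 162 of the 386 of that labelled day 20 in a further one, so that sub-clusters and libraries were partly the same division.

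Follicular cells were compared with capillary cells and macrophages. Against capillary cells, 2 of the 10 genes were higher in follicular cells (Vegfa and Vegfb) and 7 lower, with 32.2% and 31.5% of all genes called in these directions. All 5 receptors were among the 7, with log2 folds of -7.36 to -8.49. Against macrophages, 2 were higher in follicular cells (Vegfa and Vegfb) and 4 lower (Nrp1, Flt4, Tek and Angpt2), with 33.0% and 30.0% of genes called. The last 3 of these were at 0 to 11.4 CPM in both classes, and the calls of Flt4 and Tek were lost without the library labelled day 5 (edgeR adjusted p = 0.24 and 0.37), that of Angpt2 without the library labelled day 10 (adjusted p = 0.054). At most 10000 UMIs per cell the calls of Flt4, Tek and Angpt2 were lost as well (edgeR adjusted p = 0.75, 0.33 and 0.43). Without the library labelled day 5, Flt1 was called higher in follicular cells (log2 fold 0.81, adjusted p = 0.038), where with it the fold was -0.53 and not called. In macrophages of that library the 8 endothelial markers summed to 380 CPM, against 70.3 to 82.0 CPM in the others. Of its 1030 macrophages, 700 lay in a cluster led by Ccl4, Ccl3 and Cxcl2. That cluster held 126 of 844, 120 of 238 and 39 of 497 in the libraries labelled day 10, 20 and 30.

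Against capillary cells, 4 ligands were higher in mural cells (Angpt1, Vegfb, Vegfa and Angpt2) and 6 genes lower (Vegfc and the 5 receptors), with 21.9% and 21.5% of all genes called. Against fibroblasts, Angpt2 and Flt4 were higher in mural cells and Vegfc, Tek and Vegfa lower, with 13.7% and 18.4% of genes called. Flt4 rests on 15 UMIs in mural cells, and its call was lost without the library as block (log2 fold 2.55, edgeR adjusted p = 0.052) or at most 5% mitochondrial UMIs (log2 fold 2.21, adjusted p = 0.24). Mural cells also held 487 to 535 CPM of the endothelial markers. The mural values of Vegfc, Tek and Nrp1 turned with the cells counted as mural. With doublets kept, the class held 914 cells in place of 622 and its endothelial markers summed to 4252 CPM in place of 519, and the log2 fold of Tek against fibroblasts went from -2.35 to 1.53 (edgeR adjusted p = 0.0022 and 5e-05). The Vegfa call against fibroblasts (log2 fold -1.07, adjusted p = 0.038) was lost without any 1 of the libraries labelled day 10, 20 or 30 (adjusted p = 0.13, 0.12 and 0.27), with DESeq2 (adjusted p = 0.07) or without the library as block (edgeR adjusted p = 0.2).

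Other genes of the VEGF and angiopoietin pathway were read from a list of 16. Between capillary and larger vessel cells 1 was higher (Sema3c, a semaphorin that binds neuropilins) and 1 lower (Svep1, an extracellular protein known from lymphatic development), and 14 did not pass the test, where 3.22% and 5.84% of all genes were called in these directions. Their median log2 fold was -0.10, against 0.03 over all genes. Sema3c was at 9.26 to 34.5 CPM in capillary cells and 2.52 to 5.77 CPM in larger vessels (log2 fold 2.56 ± 0.54, edgeR adjusted p = 0.0028). Svep1 was at 0 to 1.74 CPM and 0 to 13.8 CPM there, and was abundant in fibroblasts at 311 to 502 CPM. Against lymphatic cells, capillary cells were higher in Ptprb, the phosphatase that acts on TEK, and Plxnd1, a semaphorin receptor, and lower in Sema3a and Pgf, with 7.49% and 6.28% of all genes called. Sema3a was at 61.9 to 141 CPM in lymphatic and under 1 CPM in capillary cells (log2 fold -7.40 ± 0.51, edgeR adjusted p = 8e-10). Ptprb was at 706 to 1283 CPM in capillary, 1541 to 1979 CPM in larger vessel and 189.5 to 271 CPM in lymphatic cells, and Plxnd1 at 197 to 549, 225 to 426 and 28.2 to 96.7 CPM. Larger vessels were likewise called against lymphatic cells in these 4 genes, higher in Ptprb and Plxnd1 (log2 fold 3.34 and 1.90) and lower in Sema3a and Pgf (-7.18 and -2.72).

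Pgf, the placental growth factor that binds FLT1, was also found in follicular cells. It was at 56.8, 80.8, 61.7 and 67.6 CPM in follicular cells, 18.3 to 105 CPM in mural cells and 0.421 to 1.31 CPM in capillary cells. Follicular cells were higher than macrophages by 4.75 ± 0.39 on the log2 scale (edgeR adjusted p = 2.1e-10). Vegfd was at 16.7 to 47.8 CPM in fibroblasts and at most 16.8 CPM in each of the other 6 classes. Tie1, the orphan partner of TEK, was at 330 to 522 CPM in the 3 endothelial classes. Of the 16 genes, 5 were higher and 8 lower in follicular than in capillary cells, where 32.2% and 31.5% of all genes were called in these directions. In mural against capillary cells 6 were higher and 7 lower (21.9% and 21.5% of all genes), and in follicular cells against macrophages 6 were higher and 5 lower (33.0% and 30.0%). Among those with the largest change, Ptprb, Tie1 and Plxnd1 were lower in follicular than in capillary cells (log2 fold -8.45, -8.00 and -7.08). Sema3e was at 2.03 to 4.09 CPM in follicular cells with no UMI in capillary cells. Mural cells were lower than capillary cells in Ptprb and Tie1 (log2 fold -5.74 and -5.69) and higher in Pgf (5.31) and in Angpt4, a further angiopoietin, at 2.78 to 19.1 CPM against at most 0.0938 CPM. Against macrophages, follicular cells were lower in Plxnd1 (log2 fold -4.41) and higher in Vash2 (4.60) and in Sema3a, which was at 1.28 to 3.02 CPM with no UMI in macrophages. In mural cells against fibroblasts 2 were higher and 7 lower (13.7% and 18.4%), among them Sema3c and Svep1 (log2 fold -5.72 and -5.11) and Sema3e and Adamts3, which had no UMI in mural cells and were at 2.30 to 7.11 and 2.27 to 5.345 CPM in fibroblasts. Lastly, in larger vessel against lymphatic cells 2 were higher and 2 lower (5.81% and 4.50%).

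A list of 14 endothelial genes known to follow VEGF signalling was read in the same contrasts. Several of them are not markers of endothelium alone. Cxcr4, a chemokine receptor, was at 43.0 to 185 CPM in macrophages and 21.6 to 57.2 CPM in capillary cells. Nr4a1 was at 159 to 794 CPM in mural cells, 115 to 306 CPM in macrophages and 188 to 316 CPM in capillary cells. Egr3 was at 15.9 to 38.7 CPM in macrophages and 13.9 to 40.4 CPM in capillary cells. Nid2 was at 108 to 136 CPM in fibroblasts and 75.1 to 394 CPM in capillary cells. Between capillary and lymphatic cells 9 were higher in capillary cells and none lower, with a median log2 fold of 2.59 against 0.26 over all genes, of which 7.49% were called higher and 6.28% lower. Between larger vessel and lymphatic cells 7 were higher and none lower, with a median of 2.31 against 0.18, and 5.81% and 4.50% of all genes were called. Aplnr, the apelin receptor, Igfbp3 and Cxcr4 were among the genes with the largest change in both contrasts, with log2 folds of 5.97, 3.93 and 4.22 in capillary and 5.56, 2.62 and 4.21 in larger vessel cells. Esm1, endocan, was at 866 to 1534 CPM in capillary, 136 to 579 CPM in larger vessel and 0 to 27.1 CPM in lymphatic cells (log2 fold 6.61 and 4.68 against lymphatic cells). It was higher in capillary cells than in larger vessels by 1.94 ± 0.45 on the log2 scale (edgeR adjusted p = 0.0049), as was Trp53i11 by 1.74 ± 0.34 (adjusted p = 0.0012), while Nos3, the endothelial nitric oxide synthase, was lower by 0.90 ± 0.23 (log2 fold -0.90, adjusted p = 0.012). The other 11 did not pass the test between these classes, where 3.22% of all genes were called higher and 5.84% lower. In follicular cells 13 of the 14 were lower than in capillary cells and none was higher (31.5% and 32.2% of all genes), and in mural cells 11 were lower and none higher (21.5% and 21.9%). The genes were listed as endothelial, so lower values in these classes follow from the choice of list and are no result about VEGF signalling. Against macrophages 1 was higher in follicular cells and 10 lower (33.0% and 30.0% of all genes), and against fibroblasts 4 were higher in mural cells and 2 lower (13.7% and 18.4%). The largest changes of follicular against capillary cells were those of Esm1, Aplnr, Dll4, a Notch ligand, and Igfbp3 (log2 fold -9.07, -8.35, -7.47 and -6.13). For mural against capillary cells they were those of Esm1, Apln, Aplnr and Kcne3 (-6.56, -6.51, -6.33 and -5.70). Follicular cells were lower than macrophages in Cxcr4, Pdgfb and Aplnr (-5.97, -2.35 and -2.23) and higher in Kcne3 (2.35). Mural cells were higher than fibroblasts in Trp53i11 and Pdgfb (3.95 and 2.77) and lower in Igfbp3 and Nid2 (-3.73 and -1.97).

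Hypoxia is a known input to Vegfa, and a list of 15 genes of that pathway was read beside it. Against macrophages, 9 were higher in follicular cells and 3 lower, with a median log2 fold of 0.90 against 0.03 over all genes, of which 33.0% were called higher and 30.0% lower. The largest change was that of Car9, a carbonic anhydrase, which was lower in follicular cells at 0 to 0.115 CPM against 3.79 to 7.01 CPM in macrophages (log2 fold -6.05 ± 0.53, edgeR adjusted p = 3.8e-08). Egln3 and Ndrg1 were higher in follicular cells (log2 fold 3.66 and 2.25). Hif1a, the oxygen-regulated subunit of HIF-1, was at 360, 329, 194 and 273 CPM in follicular cells and 45.1 to 68.5 CPM in macrophages (log2 fold 2.11 ± 0.16, edgeR adjusted p = 3.9e-11). Against capillary cells 6 were higher in follicular cells and 4 lower, with a median of 0.18 against -0.01, and 32.2% and 31.5% of all genes were called in these directions. Bnip3, a mitochondrial target of the pathway, was higher in follicular than in capillary cells by 3.10 ± 0.22 (edgeR adjusted p = 1.2e-11), and Epas1, the endothelial HIF subunit, was lower there (log2 fold -6.93 ± 0.41, adjusted p = 4.2e-13). Egln3 was higher (log2 fold 3.02) and Ndrg1 lower (-2.64) in follicular than in capillary cells. Between capillary and larger vessel cells none was higher and 2 were lower (3.22% and 5.84% of all genes), between capillary and lymphatic cells 4 were higher and 2 lower (7.49% and 6.28%), and between larger vessel and lymphatic cells 2 were higher and 2 lower (5.81% and 4.50%). Mural cells had 2 higher and 3 lower than capillary cells (21.9% and 21.5% of all genes), and 4 higher and 3 lower than fibroblasts (13.7% and 18.4%). Capillary cells were lower than larger vessels in Egln3 and Bnip3 (log2 fold -2.55 and -1.24). Against lymphatic cells they were lower in Egln3 and Adm (-5.66 and -2.45) and higher in Epas1 and Ldha (2.95 and 0.89), as were larger vessels (-3.12, -3.21, 3.01 and 1.00). Mural cells were higher than capillary cells in Egln3 (3.14) and lower in Ndrg1, Pdk1 and Epas1 (-2.63, -1.51 and -1.04). Against fibroblasts they were higher in Epas1, Egln3 and Ankrd37 (3.26, 2.42 and 1.76) and lower in Adm, adrenomedullin (-2.96). Egln3 was at most 5.56 CPM in each of these classes other than lymphatic cells (7.74 to 42.35 CPM).

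The spread of each gene between libraries was set against that of other genes in its class. The highest over the lowest library was taken for genes with a mean of at least 20 CPM, and 11.2% of 6405 genes in follicular cells, 15.3% of 6430 in capillary cells, 23.9% of 6538 in larger vessels and 43.4% of 6711 in mural cells exceeded 2-fold. In follicular cells Vegfa reached 1.80-fold and Vegfb 1.34-fold, where the median gene reached 1.425-fold and 82.1% of genes lay at or below Vegfa. In capillary cells 7 of 8 members lay above the median gene (1.447-fold), in larger vessels 3 of 7 (1.614-fold) and in mural cells 6 of 7 (1.877-fold). In capillary cells 2 of 8 members exceeded 2-fold, Angpt2 at 2.55-fold and Nrp1 at 2.12-fold, with 93.3% and 87.7% of genes at or below them, both highest in the library labelled day 20 and lowest in that labelled day 30. Flt1, Flt4 and Tek had the same highest and lowest libraries, at 1.88-, 1.503- and 1.86-fold, and Kdr reached 1.44-fold, highest in the library labelled day 5. In larger vessels 1 of 7 members exceeded 2-fold (Flt4 at 2.23-fold). In mural cells Vegfa, Kdr and Flt1 exceeded it, at 5.61-, 3.96- and 5.78-fold, all highest in the library labelled day 5, with a library under 3 UMIs set to 3 UMIs. The part of the follicular marker UMIs in mural cells of that library, given above, was not tested, and the library labelled day 20 had 21 mural cells.

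The genes whose levels over the 27 sums of class and library were most like each member were found by Pearson's r of log2(CPM + 1), as a description across sums that share libraries and classes. For Kdr they were Gpihbp1 (r = 0.980), Arhgef15 (0.979) and Cdh5 (0.978), for Tek Ramp2 (0.972), Fgd5 (0.952) and Sema6a (0.948), and for Flt1 Zfp366 (0.957), Exoc3l2 (0.954) and Sema7a (0.949). For Flt4 they were Klhl4 (0.966), Tie1 (0.944) and Ablim3 (0.937), and for Nrp1 Mndal (0.955), Sp100 (0.954) and Ifi203 (0.949). Among ligands, Vegfa was most like Shroom3 (0.919), Gem (0.917) and Cacng4 (0.909), Vegfb most like Cenpv (0.919), Sord (0.844) and Stau2 (0.828), and Vegfc most like Crispld1 (0.940), Enpp6 (0.928) and Jam2 (0.912). Angpt1 was most like Egflam (0.969), Kirrel (0.966) and Pi15 (0.944), and Angpt2 most like Rock2 (0.927), Sept4 (0.883) and Smtn (0.869).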

How the data were processed

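Thyroid cells of C57 mice (C57BL/6 in the study's methods) were dissociated, dead cells were removed, and 1 droplet 3′ library was made per age from the pooled cells of 10 mice. Per the labels, the authors aligned the reads to mm10 and counted UMIs with CellRanger. The deposited counts are whole UMIs of each gene in each droplet, not normalized, with empty droplets included. Cells were sought among the barcodes of the authors' pooled counts, whose names show no sample. Each barcode was given to the library in which it had the most UMIs, so the library of a cell was inferred. A barcode listed more than once went to as many libraries. That gave 15297, 7843, 7808 and 6555 barcodes for the libraries labelled day 5, 10, 20 and 30. Of these, barcodes of at least 200 UMIs, at most 10% mitochondrial and 5% haemoglobin UMIs were kept. The 6% with the highest doublet scores per library were then removed. Cells were clustered in scanpy 1.11.5 without integration (3000 variable genes, 30 components, 15 neighbours, Leiden resolution 1.0), and the endothelial cells again (2000 genes, 20 components, 0.6). The members and the gene lists were kept out of the clustering features. Clusters were named by marker lists, with the naming rule settled after clusters were seen, and clusters with genes of another lineage stayed unnamed. No upper limit on UMIs was set, since deep follicular cells lie above the 10000 UMIs of the study's filter, which was tried as an alternative.

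Counts were summed per class and library, leaving out sums of under 10 cells, and the 27 sums were fitted with edgeR 4.0.16 (quasi-likelihood test, TMM, filterByExpr, class plus library as block), with Benjamini-Hochberg adjustment over 14020 genes in each of 7 contrasts and a call at an adjusted p below 0.05. Each gene had a single estimate of its spread, shared by all 7 classes. The SE given with a log2 fold is its absolute value divided by the square root of the edgeR F statistic. It is derived and is no output of edgeR, and for folds near 0 it does not match the p closely. Levels carry exact 95% Poisson intervals and shares exact 95% binomial intervals. The level that a count of 0 is said to allow is that of 3 UMIs, which lies below the upper end of the Poisson interval. DESeq2 1.42.0 and Seurat 5.3.0 served for alternatives. On simulated counts for capillary against larger vessel cells (13201 genes), 70% of 2-fold and 100% of 4-fold changes were recovered, with 14 false calls. The simulated counts had the same mean profile in all classes, no library effect and a fixed dispersion, and the changed genes were drawn from those with high counts. These settings are simpler than the data, so the recovered shares do not measure the sensitivity of the real contrast. All 10 members and the genes of 3 lists (16, 14 and 15 genes) were named by rule, up to 4 called genes per list and contrast with the largest change, and Nrp2 and Vegfd were added after their values were seen. The members and lists were chosen with earlier results of these data known. Promoter sequences are from RefSeq (GRCm38.p6).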

Additional observations from a re-analysis of the deposited data

Results flagged for a closer look

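In each of 60 sets of 4 libraries (a gene in a class), the highest or lowest library was set against the others by Dixon's criterion, which chance passes in about 1 in 20 sets, and 4 passed. Vegfb in fibroblasts was at 31.8 CPM in the library labelled day 5 and at 19.18 to 19.96 CPM in the other 3, and the summed follicular markers in fibroblasts were at 1805 CPM there against 216 to 434 CPM. At the follicular ratio to these markers, fibroblasts would have had 2.80 CPM of Vegfb in that library and 0.350 to 0.478 CPM in the others. The part of follicular UMIs in the Vegfb value was not tested. In macrophages of the same library, Kdr was at 70.1 CPM against 5.303 to 7.444 CPM, Flt1 at 116 CPM against 5.113 to 12.48 CPM and Tek at 11.4 CPM against 0.9078 to 1.326 CPM. The 8 endothelial markers in macrophages summed to 380 CPM in that library and to 70.3 to 82.0 CPM in the others. At the capillary ratio to these markers, macrophages of that library would have had 93.3 CPM of Kdr, 137.5 CPM of Flt1 and 8.23 CPM of Tek. In the others the ratio gives 12.3 to 15.9, 16.7 to 28.6 and 1.365 to 2.31 CPM. The part of endothelial UMIs in the measured values was not tested.

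Outside the 7 classes compared, Angpt1 was found in T-like cells. It was at 13.3 CPM (263 UMIs) in the library labelled day 20 and 4.78 CPM (27 UMIs) in that labelled day 30. The libraries labelled day 5 and 10 had no Angpt1 UMI in this class, which allows up to 2.17 and 4.61 CPM. Droplets of free RNA held 1.5 to 3.1 CPM. The make-up of the T-like class differed too. By label from day 5 to day 30 it numbered 479, 171, 3968 and 1245. Its largest cluster, with Rag1 among the leading genes, gave 0, 2, 2640 and 789 of these. Another, with Dntt among them, gave 0, 0, 535 and 351. The part of this difference in the Angpt1 values was not tested.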

How the results depend on the processing

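The 7 contrasts were recomputed under 16 alternatives each, which were library size alone in place of TMM, DESeq2, no filter on low counts, no block, each library left out in turn, cells of at most 10000 or at least 1000 UMIs, doublets kept, at most 5% mitochondrial UMIs, SCTransform integration, coarser and finer clusters, and list genes kept among the features. Of 49 calls of members, 33 were kept under every alternative. The 9 calls of follicular against capillary cells gave a count of 9 each time.

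Without the replicate block (the library term), the members called fell from 6 to 3 between capillary and larger vessel cells and from 5 to 3 between mural cells and fibroblasts. With 1 library left out, the first count ranged from 3 (without that labelled day 10) to 7. Between follicular cells and macrophages it was 3 in place of 6 at most 10000 UMIs or at most 5% mitochondrial UMIs. Between mural cells and fibroblasts it was 8 in place of 5 at no less than 1000 UMIs or with doublets kept.

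Mural values turned in direction with the cells taken as mural. At most 10000 UMIs, at least 1000 UMIs, doublets kept and coarser clusters gave, in this order, a log2 fold of Vegfc against capillary cells of 0.13, 1.00, 1.17 and 0.87 in place of -2.58, and of Tek against fibroblasts of 0.05, 1.56, 1.53 and 1.41 in place of -2.35. The last 3 of these gave 0.38, 0.44 and 0.44 for Vegfc against fibroblasts (-3.09) and 0.88, 0.89 and 0.76 for Nrp1 (-0.76). The endothelial markers of the class, at 519 CPM, were then at 1678, 4228, 4252 and 4070 CPM. Between follicular cells and macrophages Flt4 was at 0.09 with integration and 0.01 with finer clusters in place of -2.53, and Flt1 at 0.96 with doublets kept in place of -0.53, ranging from -1.05 to 0.81 with 1 library left out. The cause was not tested. Levels were read per library, and a level was counted as moved when it left the exact Poisson interval of its main value. By this rule 56 values moved and 281 did not. That interval covers counting error only, and the SD between libraries was not used. At most 10000 UMIs 18 moved and 18 did not, and with the mean over cells of each cell's own CPM 15 moved and 23 did not. The shares, which depend on depth by construction, moved in 67 cases and not in 9.

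Lymphatic cells numbered 13 to 48 per library, and a count of 0 allows up to 23.22 CPM (labelled day 10) or 42.35 CPM (labelled day 20).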
